A study of Homo sapiens with 9 samples.

Results

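The autophagy machinery and its receptors were followed as 60 genes, taken by name from the 58395 genes in the count files and matched through their Ensembl identifiers to symbols of GENCODE release 29. They cover initiation (5 genes), nucleation (7), membrane supply (10), conjugation of ATG8 proteins (10), the ATG8 proteins themselves (6), soluble cargo receptors (6), mitophagy receptors (3), receptors for endoplasmic reticulum (ER) autophagy (6), fusion with the lysosome (6), and the stress-induced regulator DEPP1. The cells, of the triple-negative breast cancer line MDA-MB-231, were grown in DMEM with serum and harvested 96 h after transfection with an siRNA. There were 3 libraries for a non-targeting control siRNA (siNC), 3 for ZIP7 siRNA_1 (siZIP7_1, from Horizon) and 3 for ZIP7 siRNA_2 (siZIP7_2, from Qiagen), 9 in all, and the labels give no further treatment for any group. ZIP7, encoded by SLC39A7, releases zinc from the ER, and the comparison asks how the transcripts of autophagy genes differ after its loss with each siRNA. All groups are of 1 cell line, each siRNA is a single sequence set against the same control, and no rescue of ZIP7 is among these libraries.

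Autophagy encloses cytoplasm in a double membrane and delivers it to the lysosome for breakdown. A kinase complex around ULK1 starts the process, a lipid kinase complex around Beclin 1 marks the site on the ER, lipid transfer proteins feed the growing membrane, and a ubiquitin-like system attaches ATG8 proteins (LC3 and GABARAP) to it. Receptors that bind both cargo and ATG8 proteins choose what is taken in, and SNARE proteins then fuse the closed autophagosome with the lysosome. In tumour cells the pathway is known for supplying nutrients and removing damaged organelles under stress. Only mRNA was measured here, so the values below are transcript levels and not the rate of autophagy.

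Each library had 24153785 to 30454419 reads on genes. Levels are given as CPM, the count per 1000000 reads after TMM scaling, which sets the libraries to a common level, and as RPKM (CPM per kilobase of exon) where genes are compared with each other. SLC39A7 itself stood at 329 ± 12.5 CPM in control libraries, at 35.6 ± 2.83 CPM after siZIP7_1 and at 19.2 ± 1.45 CPM after siZIP7_2 (SD, n = 3 for each), which fits the labels. The summed level of 5 genes typical of this line (VIM, CD44, ZEB1, KRT8 and KRT18) was 6680 to 7124 CPM with siNC, 3956 to 4233 with siZIP7_1 and 5123 to 5264 with siZIP7_2. The summed level of 4 genes listed as low in this line (ESR1, PGR, CDH1 and ERBB2) was 72.2 to 76.1, 87.5 to 95.8 and 57.9 to 63.8 CPM in the same order. That of 5 markers of other cell types, of which MYOD1 was at 0 in every library, was 3.27 to 3.74, 0.878 to 1.09 and 8.27 to 9.44 CPM. Genes within a sum could move apart. In the first list 2 were higher and 3 lower with siZIP7_1, 1 was higher and 3 lower with siZIP7_2, and 3 were opposite. Of the second, 3 could be tested, 3 higher with siZIP7_1, and 2 higher and 1 lower with siZIP7_2. Of the third, 2 could be tested, at log2 -4.83 and 1.10 with siZIP7_1. The part of these shifts in the results below was not tested, and in bulk RNA fewer cells of a kind and less RNA per cell cannot be told apart.

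More autophagy genes were higher than lower with either siRNA. The set was chosen with earlier results of these data known, so its shares beside those of all genes are descriptions. With siZIP7_1, 41 of the 59 genes that could be tested were higher than with siNC, 9 were lower and 9 did not pass the test (edgeR quasi-likelihood test, adjusted p threshold 0.05). Among all 16761 genes tested, 70.7% passed, 34.8% higher and 35.9% lower. The median log2 fold change was 0.43 over the 59 members, where it was -0.01 over all genes. ULK2, a kinase related to ULK1, was not tested, with 0, 2 and 3 reads in the siNC libraries, 9, 4 and 7 with siZIP7_1 and 3, 4 and 3 with siZIP7_2.

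With siZIP7_2, 35 members were higher than with siNC, 12 were lower and 12 did not pass. Of all genes 77.8% passed in this comparison, 38.5% higher and 39.3% lower. The median log2 fold change of the members was 0.27, where that of all genes was -0.00. Upper-quartile normalization moved the median of all genes by 0.11 in this comparison, and then 42 members were higher and 7 lower, beside 43.3% and 34.6% of all genes.

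The comparisons with siZIP7_1 and siZIP7_2 share the siNC libraries. Between them, 29 members were higher with both siRNAs and 4 were lower with both (ATG3, ATG10, STX17 and SNAP29), where 17.7% and 20.8% of all genes were. A further 9 members changed in opposite directions, beside 18.7% of all genes. Another 8 passed with siZIP7_1 alone, 5 with siZIP7_2 alone, and 4 with neither (PIK3R4, ATG5, ATG16L1 and FUNDC1). The shares of all genes in these last classes were not counted. Most members that passed with a single siRNA alone changed pattern under other settings, as given below.

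Many of these differences were small. Tested against a change of 1.8-fold (glmTreat in edgeR), 4 members were higher with siZIP7_1 (UVRAG, RUBCN, ATG2B and ATG4A) and 0 lower, beside 8.6% and 8.32% of all genes. With siZIP7_2, 7 were higher (ULK1, VMP1, ATG4A, MAP1LC3B2, GABARAPL1, SQSTM1 and DEPP1) and 1 lower (MAP1LC3A), beside 14% and 10.7%. Between the siRNAs, 5 were higher with siZIP7_2 (VMP1, GABARAPL1, SQSTM1, BNIP3L and DEPP1) and 4 lower (ATG2A, ATG2B, MAP1LC3A and NBR1), beside 15.2% and 13%. ATG4A was higher with both at this size and no member lower with both or opposite, beside 3%, 1.98% and 1.53% of all genes. Each of these counts at 1.8-fold was a smaller share of the tested members than the share of all genes beside it. Upper-quartile normalization, at the threshold of no change, left 32 members higher with both, 3 lower with both and 8 opposite, beside 20.1%, 18.3% and 18.8%. It gave 26 higher and 23 lower between the siRNAs, beside 41.8% and 36.9%, and with siZIP7_1 against siNC 36.1% of all genes were higher and 34.5% lower.

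**Figure D1:**
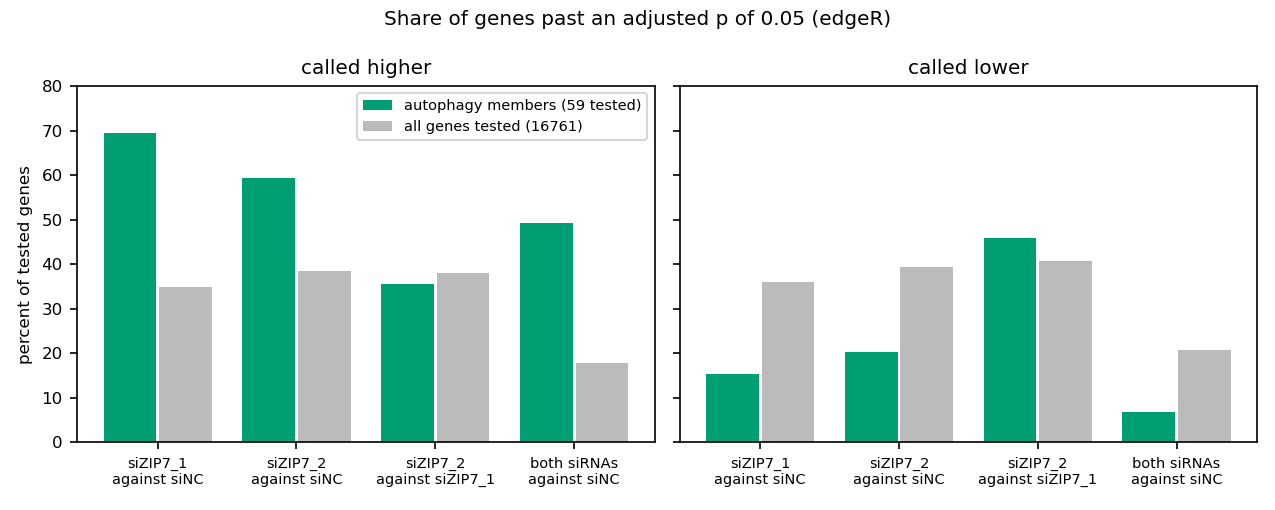
Percent of tested genes called higher (left) or lower (right) at an adjusted p under 0.05, for the 59 tested autophagy members (green) and all 16761 tested genes (grey), in each comparison on the horizontal axis. Members were called higher more often than all genes against siNC (69.5% with siZIP7_1 and 59.3% with siZIP7_2), and near the share of all genes between the siRNAs (35.6%). The set was chosen with earlier results of these data known, so these shares are descriptions.

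**Figure D2:**
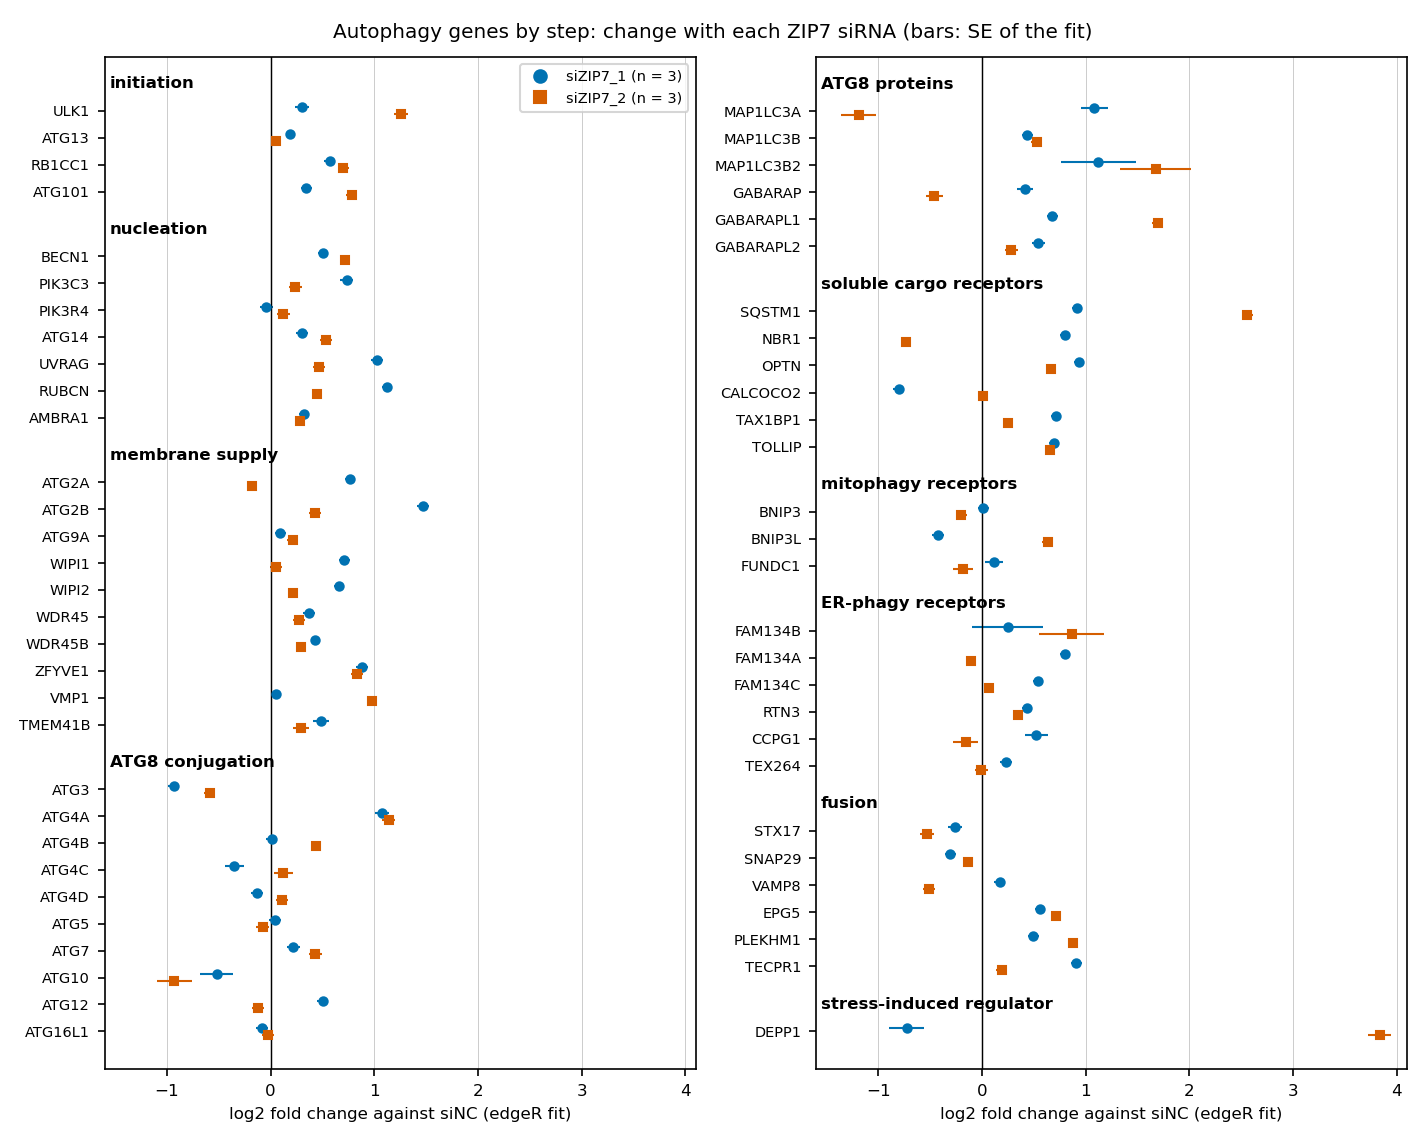
Log2 fold change against siNC for each of the 59 tested members, ordered by step, with siZIP7_1 as blue circles, siZIP7_2 as orange squares and the standard error of the fit as bars. Initiation and nucleation genes lie to the right of 0 with the exception of PIK3R4 with siZIP7_1 (-0.04), conjugation lies on both sides, and DEPP1 lies at -0.72 and 3.84.

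Of the initiation genes, 4 of 4 tested were higher with siZIP7_1 and 3 with siZIP7_2. As shares these are 100% and 75.0%, beside 34.8% and 38.5% of all genes. ULK1 encodes the kinase that starts autophagy. Its level was 48.6, 43.9 and 45.6 CPM in the siNC libraries, 59.3, 54.4 and 57.0 CPM with siZIP7_1 and 127, 97.9 and 106 CPM with siZIP7_2. The 3 groups do not overlap, and the siZIP7_2 libraries stand far above the others. ULK1 was higher by 0.31 on the log2 scale with siZIP7_1 (SE 0.070, edgeR adjusted p = 0.000322) and 1.26 with siZIP7_2 (SE 0.068, edgeR adjusted p = 4.95e-16), and the siRNAs differed from each other by 0.95 (SE 0.067, edgeR adjusted p = 1.41e-13).

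ATG101, which stabilises ATG13 in the ULK1 complex, was at 48.9, 54.2 and 50.3 CPM with siNC, 62.9, 65.6 and 66.3 CPM with siZIP7_1 and 86.7, 85.1 and 91.8 CPM with siZIP7_2. Its groups rank in the same order as those of ULK1, again without overlap, with log2 fold changes of 0.34 and 0.78. RB1CC1 (FIP200), the scaffold of the complex, was at 64.2, 57.4 and 66.0 CPM with siNC, 94.3, 93.3 and 91.7 CPM with siZIP7_1 and 96.8, 106 and 103 CPM with siZIP7_2. Both siZIP7 groups lie above siNC for this gene, by 0.57 and 0.70 on the log2 scale. ATG13, the subunit that links kinase and scaffold, was 1.14-fold higher with siZIP7_1 and did not pass with siZIP7_2 (log2 0.06, SE 0.047, edgeR adjusted p = 0.266).

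Of the 7 nucleation genes, 6 were higher with both siRNAs (85.7%, beside 17.7% of all genes). PIK3R4 (VPS15), the regulatory subunit that every form of this lipid kinase complex holds, was the exception, at 31.2 ± 0.838, 30.4 ± 2.45 and 34.0 ± 0.309 CPM (SD, n = 3) with siNC, siZIP7_1 and siZIP7_2. Its siZIP7_2 libraries all lay above siNC without passing (log2 0.12, edgeR adjusted p = 0.0745), and 5 of 17 alternative settings called it higher there. PIK3R4 was also higher with siZIP7_2 than with siZIP7_1 (log2 0.16, edgeR adjusted p = 0.0173). RUBCN (Rubicon), known as a brake on autophagosome maturation, was at 75.1, 75.7 and 69.6 CPM with siNC, 159, 160 and 160 CPM with siZIP7_1 and 98.0, 99.4 and 102 CPM with siZIP7_2. UVRAG, an alternative partner of Beclin 1 that promotes maturation and endocytic traffic, was at 31.9, 32.8 and 30.01 CPM with siNC, 63.3, 68.4 and 61.3 CPM with siZIP7_1 and 41.7, 44.6 and 44.6 CPM with siZIP7_2. In both genes the siZIP7_1 libraries were highest and the siNC libraries lowest.

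The log2 fold change of RUBCN was 1.12 with siZIP7_1 (SE 0.047, edgeR adjusted p = 1.49e-18) and 0.45 with siZIP7_2, and that of UVRAG was 1.03 and 0.47. PIK3C3 (VPS34), the catalytic lipid kinase, followed the same order, at 37.6, 33.3 and 40.1 CPM with siNC, 62.9, 63.4 and 58.8 CPM with siZIP7_1 and 42.2, 45.6 and 43.4 CPM with siZIP7_2. For these 3 genes the siZIP7_2 level was below the siZIP7_1 level, by 0.68, 0.56 and 0.50 on the log2 scale for RUBCN, UVRAG and PIK3C3. BECN1 (Beclin 1) and ATG14, which targets the complex to the ER, ranked the other way, with log2 fold changes of 0.50 and 0.71 for BECN1 and of 0.30 and 0.54 for ATG14 with siZIP7_1 and siZIP7_2. AMBRA1, a regulator of Beclin 1, was higher by 0.33 and 0.28 on the log2 scale. PSME3 overlaps BECN1 within the 17.1% of the BECN1 exonic length that other genes cover, and it was lower with both siRNAs (289, 183 and 240 CPM).

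Of the 10 membrane supply genes, 8 were higher with siZIP7_1 and none was lower, and 8 were higher and 1 lower with siZIP7_2, with 6 higher with both. ATG2B, which carries lipids from the ER into the growing membrane, was at 27.3, 28.2 and 27.3 CPM with siNC, 78.6, 78.0 and 72.7 CPM with siZIP7_1 and 35.3, 37.9 and 38.1 CPM with siZIP7_2. It was the member with the largest log2 fold change with siZIP7_1, at 1.47 (SE 0.055, edgeR adjusted p = 9.65e-20), against 0.43 with siZIP7_2 (SE 0.058, edgeR adjusted p = 1.19e-07). Its paralog ATG2A was at 121, 122 and 129 CPM with siNC, 220, 202 and 210 CPM with siZIP7_1 and 115, 103 and 110 CPM with siZIP7_2. ATG2A was thus 1.70-fold higher with siZIP7_1 and lower with siZIP7_2 (log2 -0.18, edgeR adjusted p = 0.00208), and the lower call was lost with upper-quartile normalization (-0.07) and when every library had to hold 10 counts (-0.10).

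VMP1, a scramblase of the ER membrane needed to form autophagosomes, was at 172, 158 and 175 CPM with siNC, 168, 179 and 176 CPM with siZIP7_1 and 347, 325 and 326 CPM with siZIP7_2. The siNC and siZIP7_1 libraries overlap and the siZIP7_2 libraries lie far above both, with a log2 fold change of 0.98 (SE 0.049, edgeR adjusted p = 6.87e-17). The gene that encodes miR-21 lies within VMP1 and shares part of its exons. TMEM41B, which works with VMP1, was 1.40-fold and 1.23-fold higher. ZFYVE1 (DFCP1), a protein that gathers where autophagosomes arise on the ER, was at 31.2, 29.5 and 32.8 CPM with siNC, 57.4, 58.7 and 56.5 CPM with siZIP7_1 and 53.1, 57.4 and 56.02 CPM with siZIP7_2. The siZIP7 groups overlap for ZFYVE1 and both lie above siNC, by 0.88 and 0.83 on the log2 scale.

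The WIPI proteins read the lipid mark left by VPS34. WIPI1 was 1.64-fold higher with siZIP7_1 and did not pass with siZIP7_2 (37.6 ± 0.897 against 36.1 ± 1.42 CPM with siNC, SD, n = 3). WIPI2 was higher by 0.66 and 0.22 on the log2 scale, WDR45B (WIPI3) by 0.43 and 0.29, and WDR45 (WIPI4) by 0.37 and 0.27. ATG9A, the scramblase carried by vesicles that seed the membrane, was higher by 0.21 on the log2 scale with siZIP7_2 and did not pass with siZIP7_1, and 38.8% of its exonic length is shared with another annotated gene.

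The conjugation step had no prevailing direction. Of its 10 genes, 3 were higher and 4 lower with siZIP7_1, and 3 were higher and 3 lower with siZIP7_2, with medians of -0.03 and 0.05 on the log2 scale. ATG4A, a protease that trims ATG8 proteins before they are attached, was at 13.6, 14.4 and 14.3 CPM with siNC, 29.7, 29.4 and 30.3 CPM with siZIP7_1 and 32.3, 29.8 and 31.2 CPM with siZIP7_2. It was 2.11-fold and 2.20-fold higher (SE of log2 0.066 for each, edgeR adjusted p = 8.28e-15 and 1.96e-15), and the siZIP7 groups overlap. Its paralogs differed from it. ATG4B, the most active of these proteases, was at 66.0 ± 3.36, 66.5 ± 3.01 and 89.3 ± 2.07 CPM (SD, n = 3), higher with siZIP7_2 alone. ATG4C was 1.28-fold lower with siZIP7_1, and ATG4D lay so near the threshold there (edgeR adjusted p = 0.0408) that its call was lost in 13 of 17 alternative settings.

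ATG3, the enzyme that transfers ATG8 proteins to the lipid, was at 70.0, 76.17 and 72.51 CPM with siNC, 38.4, 37.4 and 38.7 CPM with siZIP7_1 and 47.6, 46.8 and 51.1 CPM with siZIP7_2. Every siZIP7 library lies below every siNC library, with log2 fold changes of -0.93 (SE 0.053, edgeR adjusted p = 1.81e-15) and -0.59 (SE 0.053, edgeR adjusted p = 3.31e-11). ATG10, its counterpart for ATG12, was also lower, at 3.92, 3.57 and 3.70 CPM with siNC, 2.26, 2.23 and 3.26 CPM with siZIP7_1 and 1.98, 1.74 and 2.19 CPM with siZIP7_2. ATG7, the enzyme that activates both ATG8 proteins and ATG12, was higher with both (1.17-fold and 1.35-fold). VGLL4 covers part of the 18.1% of ATG7 exonic length that other genes overlap, and it stood at 93.9, 55.6 and 242 CPM with siNC, siZIP7_1 and siZIP7_2.

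ATG5, ATG12 and ATG16L1 form the complex that guides conjugation to the membrane, and ATG5 and ATG16L1 passed the test with neither siRNA. ATG5 was at 39.8 ± 1.28, 41.0 ± 3.84 and 37.9 ± 1.45 CPM (SD, n = 3), and ATG16L1 at 34.1 ± 0.622, 32.3 ± 1.35 and 33.7 ± 1.01 CPM (SD, n = 3). ATG12 was 1.42-fold higher with siZIP7_1. With siZIP7_2 it was called lower at a log2 fold change of -0.12 (edgeR adjusted p = 0.0473), a call lost in 10 of 17 alternative settings.

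All 6 ATG8 genes were higher with siZIP7_1, beside 34.8% of all genes, while 4 were higher and 2 lower with siZIP7_2. The latter are 66.7% and 33.3%, beside 38.5% and 39.3% of all genes. GABARAPL1, on chromosome 12 from 10212458 to 10223130 (plus strand, GRCh38), was at 30.4, 29.1 and 31.8 CPM with siNC, 47.8, 49.5 and 49.0 CPM with siZIP7_1 and 100.3, 94.8 and 101 CPM with siZIP7_2. The groups stand well apart, at 1.60-fold (log2 0.68, SE 0.055, edgeR adjusted p = 4.21e-12) and 3.24-fold of siNC (log2 1.70, SE 0.053, edgeR adjusted p = 1.33e-21). MAP1LC3B, the LC3 form used most to follow autophagosomes, was at 87.2, 84.3 and 94.5 CPM with siNC, 121, 126 and 114 CPM with siZIP7_1 and 132, 124 and 128 CPM with siZIP7_2. It was 1.36-fold and 1.44-fold higher, with the siZIP7 groups overlapping.

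MAP1LC3A and GABARAP changed in opposite directions. MAP1LC3A, on chromosome 20 from 34546854 to 34560345 (plus strand), was at 3.92, 3.01 and 3.60 CPM with siNC, 7.43, 6.53 and 8.44 CPM with siZIP7_1 and 1.51, 1.45 and 1.69 CPM with siZIP7_2. MAP1LC3A differed from siNC by 1.08 on the log2 scale with siZIP7_1 (SE 0.13, edgeR adjusted p = 1.24e-08) and by -1.19 with siZIP7_2 (SE 0.17, edgeR adjusted p = 2.99e-07). GABARAP was at 12.6, 12.9 and 12.5 CPM with siNC, 15.8, 17.1 and 17.8 CPM with siZIP7_1 and 9.16, 9.11 and 9.38 CPM with siZIP7_2. In both genes the siNC libraries lie between the siZIP7 groups, which do not overlap with them. Other annotated genes cover 55.7% of the exonic length of GABARAP, 25.2% on the opposite strand, and AC120057.3 among them was at 0.828, 1.62 and 0.932 CPM. GABARAPL2 was at 32.4, 29.3 and 35.7 CPM with siNC, 47.3, 48.5 and 46.5 CPM with siZIP7_1 and 41.0, 37.8 and 40.1 CPM with siZIP7_2, above siNC in each group.

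MAP1LC3B2 is a near copy of MAP1LC3B. Their coding sequences have 378 bases each and differ at 2, an identity of 99.5%. The first 90 bases of each, read from GENCODE release 29 transcripts, show why a read can fit either gene, and the capital marks the base in this stretch that differs.
MAP1LC3B: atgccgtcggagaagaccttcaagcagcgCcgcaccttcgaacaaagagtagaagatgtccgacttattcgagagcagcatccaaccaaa
MAP1LC3B2: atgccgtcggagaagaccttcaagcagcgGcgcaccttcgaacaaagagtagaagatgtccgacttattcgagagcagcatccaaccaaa
MAP1LC3B2 had 16, 3 and 12 reads with siNC, 24, 25 and 27 with siZIP7_1 and 20, 44 and 40 with siZIP7_2, higher with both siRNAs in the fit (log2 1.12 and 1.68). It counts as uncertain, since 15.1% of its 50-base words also lie in other genes, and the siZIP7_1 call was lost without siNC replicate 2 (log2 0.77).

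Per length, the ATG8 transcripts were redistributed with siZIP7_2. The lengths include exonic stretches that other annotated genes cover, 55.7% for GABARAP, and reads there can go uncounted as ambiguous. The part of this in the shares of genes within a group was not tested. MAP1LC3B held 39.1% ± 0.574 (SD, n = 3) of the summed RPKM of the family with siNC and GABARAPL1 17.5% ± 0.273 (SD, n = 3). With siZIP7_2 their shares were 36.0% ± 0.449 and 36.1% ± 0.248 (SD, n = 3), so that GABARAPL1 was level with MAP1LC3B. The share of GABARAP went from 13.1% ± 0.949 to 6.08% ± 0.142 and that of MAP1LC3A from 4.66% ± 0.498 to 1.31% ± 0.0845 (SD, n = 3). With siZIP7_1 the shares were 36.3% ± 1.39 for MAP1LC3B, 19.1% ± 0.211 for GABARAPL1, 11.9% ± 0.695 for GABARAP and 6.80% ± 0.957 for MAP1LC3A (SD, n = 3), so MAP1LC3A held more of the family than with siNC.

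**Figure D3:**
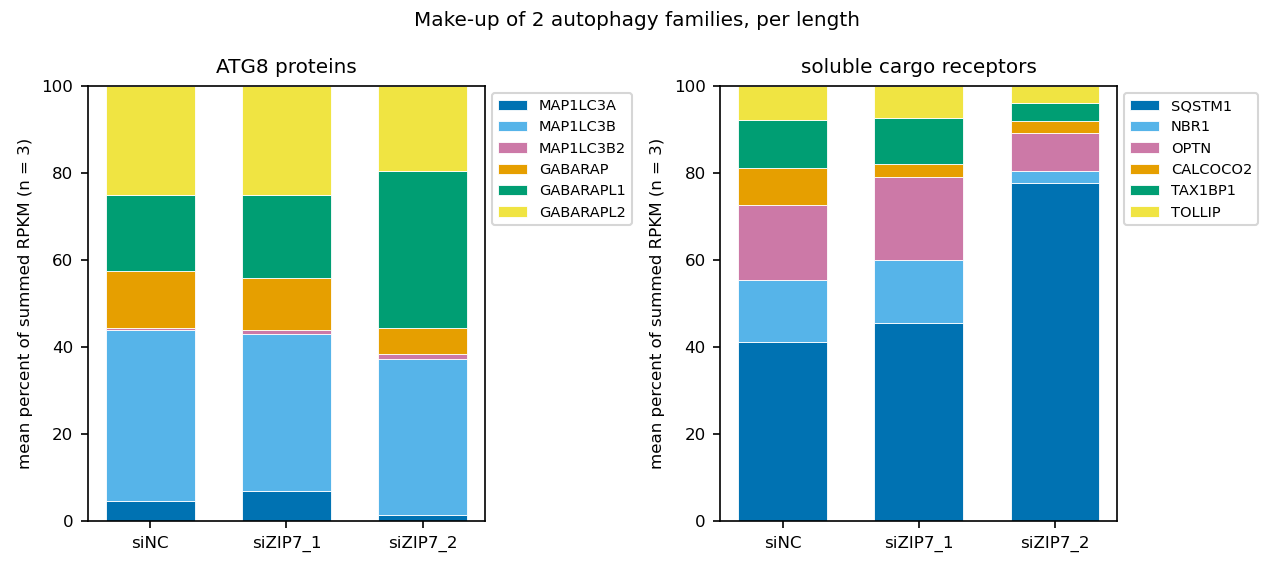
Mean share of each gene in the summed RPKM of the ATG8 proteins (left) and of the soluble cargo receptors (right) in percent, for siNC, siZIP7_1 and siZIP7_2 with 3 libraries each. GABARAPL1 makes up 17.5%, 19.1% and 36.1% of the ATG8 family, and SQSTM1 makes up 41.2%, 45.4% and 77.6% of the receptors. Shares use the full exonic length, part of which other genes cover (55.7% for GABARAP and 22.0% for SQSTM1).

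Of the 6 soluble cargo receptors, 5 were higher and 1 lower with siZIP7_1, and 4 were higher and 1 lower with siZIP7_2. As shares these are 83.3% and 16.7%, then 66.7% and 16.7%, beside 34.8% and 35.9%, then 38.5% and 39.3% of all genes. SQSTM1 encodes p62, which binds ubiquitylated cargo and also the NRF2 inhibitor KEAP1, and lies on chromosome 5 from 179806398 to 179838078 (plus strand). It was at 538, 541 and 530 CPM with siNC, 991, 1017 and 1024 CPM with siZIP7_1 and 3284, 2982 and 3222 CPM with siZIP7_2. The libraries of a group lie close together and the groups far apart, at 1.88-fold (log2 0.91, SE 0.049, edgeR adjusted p = 3.53e-16) and 5.90-fold of siNC (log2 2.56, SE 0.051, edgeR adjusted p = 4.79e-26). The siRNAs differed by 1.65 on the log2 scale (SE 0.049, edgeR adjusted p = 2.22e-22). MGAT4B and MRNIP cover 22.0% of the SQSTM1 exonic length on the opposite strand, and they stood at 207 and 22.3 CPM with siNC, 311 and 26.1 CPM with siZIP7_1, and 197 and 19.8 CPM with siZIP7_2. Both neighbours were higher with siZIP7_1 (log2 0.59 for MGAT4B and 0.22 for MRNIP, edgeR adjusted p = 2.13e-12 and 0.0201), and neither passed the test with siZIP7_2 (log2 -0.07 and -0.18). Their part in the SQSTM1 counts was not tested.

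NBR1, a receptor that works beside p62, lies on chromosome 17 from 43170481 to 43211689 (plus strand). Its level was 208, 198 and 206 CPM with siNC, 359, 360 and 347 CPM with siZIP7_1 and 129, 115 and 126 CPM with siZIP7_2. The siNC libraries lie between the siZIP7 groups, with log2 fold changes of 0.80 (SE 0.048, edgeR adjusted p = 5.52e-15) and -0.73 (SE 0.049, edgeR adjusted p = 6.75e-14). CALCOCO2 (NDP52), which recognises bacteria and damaged mitochondria, was at 123, 116 and 123 CPM with siNC, 68.4, 71.5 and 67.8 CPM with siZIP7_1 and 116, 126 and 123 CPM with siZIP7_2. It was lower with siZIP7_1 (log2 -0.80, SE 0.049, edgeR adjusted p = 8.65e-15), while the siNC and siZIP7_2 libraries overlap.

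OPTN (optineurin), a receptor in mitophagy and in the clearance of bacteria, was at 152, 148 and 151 CPM with siNC, 280, 293 and 287 CPM with siZIP7_1 and 242, 229 and 244 CPM with siZIP7_2. Both siZIP7 groups were above siNC, by 1.91-fold and 1.59-fold. TAX1BP1, a relative of NDP52, was 1.64-fold and 1.19-fold higher, and TOLLIP, which also sorts endosomal cargo, 1.62-fold and 1.57-fold. Per length SQSTM1 held 41.2% ± 0.60 of the summed RPKM of these receptors with siNC, 45.4% ± 0.656 with siZIP7_1 and 77.6% ± 0.628 with siZIP7_2 (SD, n = 3), and NBR1 held 14.3% ± 0.261, 14.5% ± 0.322 and 2.76% ± 0.0525 (SD, n = 3).

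**Figure D4:**
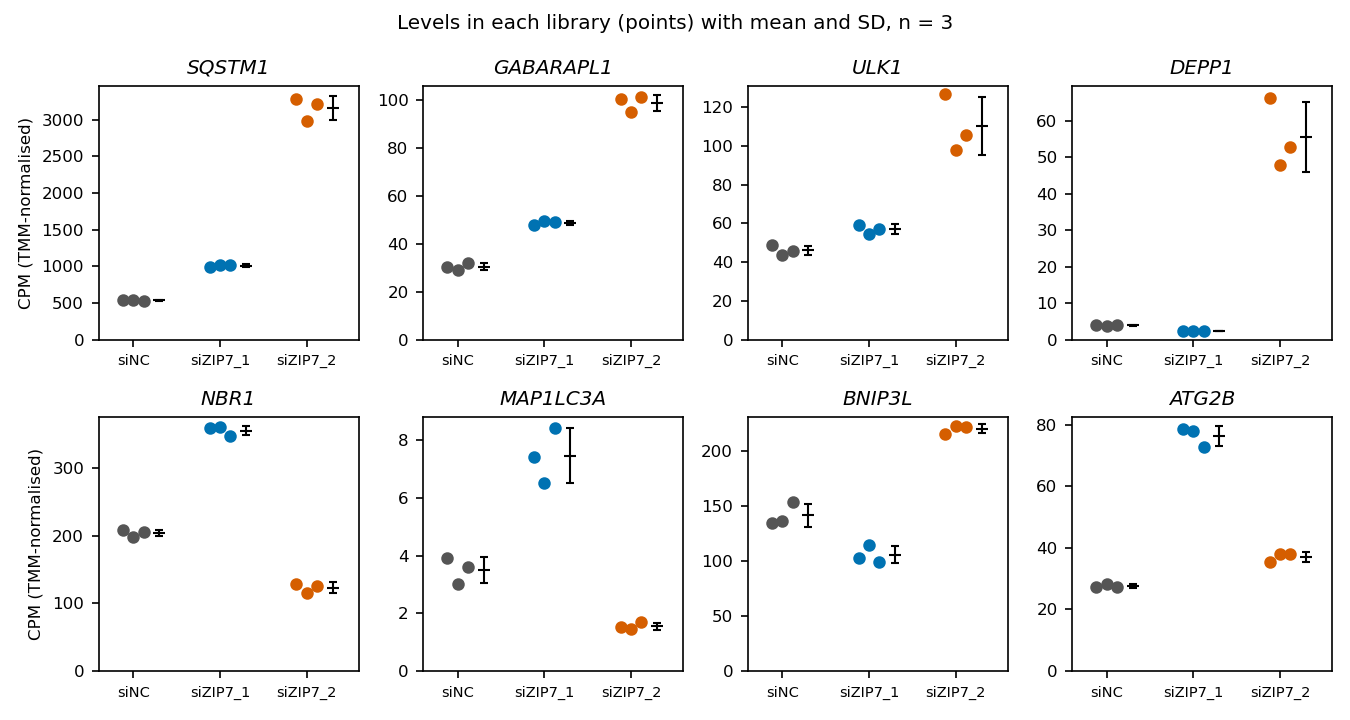
CPM in every library (points) with the mean and SD of the 3 libraries (bars) for 8 members, on linear axes from 0, with siNC in grey, siZIP7_1 in blue and siZIP7_2 in orange. SQSTM1, GABARAPL1 and ULK1 step up from siNC to siZIP7_1 to siZIP7_2, NBR1 and MAP1LC3A are highest with siZIP7_1 and lowest with siZIP7_2, and BNIP3L and DEPP1 are lowest with siZIP7_1 and highest with siZIP7_2.

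The mitophagy receptors sit in the outer mitochondrial membrane. None of the 3 changed in the same direction with both siRNAs, where 17.7% of all genes were higher and 20.8% lower with both. BNIP3L (NIX), on chromosome 8 from 26382898 to 26505636 (plus strand), was at 134, 136 and 154 CPM with siNC, 103, 114 and 99.5 CPM with siZIP7_1 and 216, 223 and 222 CPM with siZIP7_2. It was lower with siZIP7_1 (log2 -0.42, SE 0.055, edgeR adjusted p = 8.29e-08) and higher with siZIP7_2 (log2 0.64, SE 0.054, edgeR adjusted p = 1.16e-11). Its paralog BNIP3 was at 74.2, 82.7 and 82.1 CPM with siNC, 77.8, 86.8 and 76.7 CPM with siZIP7_1 and 68.6, 69.8 and 70.1 CPM with siZIP7_2. BNIP3 overlapped siNC with siZIP7_1 and lay below it with siZIP7_2 (log2 -0.20, edgeR adjusted p = 0.00191), a call lost with upper-quartile normalization (-0.09). FUNDC1, a receptor activated in hypoxia, was at 10.5, 11.4 and 13.0 CPM with siNC, 12.2, 13.7 and 12.1 CPM with siZIP7_1 and 9.51, 10.9 and 10.4 CPM with siZIP7_2. Each siZIP7 group overlaps siNC, but they do not overlap each other, and FUNDC1 was lower with siZIP7_2 than with siZIP7_1 (log2 -0.30, SE 0.090, edgeR adjusted p = 0.00377).

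The ER-phagy receptors recruit parts of the ER to the growing membrane. Of the 6, 5 were higher with siZIP7_1 and 2 were higher and 1 lower with siZIP7_2, and 4 were lower with siZIP7_2 than with siZIP7_1. The siZIP7_1 share is 83.3%, beside 34.8% of all genes. With siZIP7_2 the shares are 33.3% and 16.7%, beside 38.5% and 39.3%. Between the siRNAs 66.7% were lower, beside 40.6% of all genes. FAM134A, a relative of FAM134B, was at 93.3, 95.9 and 95.4 CPM with siNC, 167, 169 and 162 CPM with siZIP7_1 and 88.0, 82.8 and 93.6 CPM with siZIP7_2. Its siZIP7_1 libraries stand apart at 1.75-fold, and the siRNAs differed by 0.91 on the log2 scale (SE 0.049, edgeR adjusted p = 2.29e-16). With siZIP7_2 it was called lower at edgeR adjusted p = 0.0499 although 1 siZIP7_2 library lay within the range of siNC, and that call was lost in 11 of 17 alternative settings. FAM134C, the remaining relative, was at 90.6, 93.6 and 92.9 CPM with siNC, 134, 132 and 136 CPM with siZIP7_1 and 98.8, 92.0 and 100.1 CPM with siZIP7_2, so it was 1.45-fold higher with siZIP7_1 and overlapped siNC with siZIP7_2.

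FAM134B, the member of this family that shapes ER sheets, was at 0.418 ± 0.0864, 0.498 ± 0.0448 and 0.762 ± 0.195 CPM (SD, n = 3), and at this low level its higher call with siZIP7_2 (log2 0.87, edgeR adjusted p = 0.0142) was lost in 4 of the 16 alternative settings that tested it. CCPG1, an ER-phagy receptor of the unfolded protein response, was at 6.83, 8.81 and 9.22 CPM with siNC, 11.0, 13.9 and 10.9 CPM with siZIP7_1 and 7.26, 7.53 and 7.46 CPM with siZIP7_2. It was 1.44-fold higher with siZIP7_1, and it counts as uncertain because 39.8% of its exonic length is shared with other annotated genes, among them a read-through transcript. RTN3, which acts on ER tubules, was 1.35-fold and 1.28-fold higher, and was the ER-phagy receptor called higher with both siRNAs. TEX264 was 1.18-fold higher with siZIP7_1 and at 36.0 ± 2.41 CPM with siZIP7_2 against 36.1 ± 1.79 CPM with siNC (SD, n = 3).

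Of the 6 fusion genes, 4 were higher and 2 lower with siZIP7_1, and 3 were higher and 3 lower with siZIP7_2. The siZIP7_1 shares are 66.7% and 33.3%, beside 34.8% and 35.9% of all genes. With siZIP7_2, 38.5% of all genes were higher and 39.3% lower. The step holds few genes, so its counts beside these shares are descriptions. The SNARE genes STX17 and SNAP29, whose proteins bridge autophagosome and lysosome, were lower with both siRNAs. STX17 was at 28.2 ± 1.02, 23.6 ± 1.13 and 19.6 ± 1.38 CPM (SD, n = 3), with log2 fold changes of -0.26 and -0.53. SNAP29 was at 53.7 ± 0.815, 43.4 ± 1.35 and 48.9 ± 1.05 CPM (SD, n = 3), and its call with siZIP7_2 (edgeR adjusted p = 0.0208) was lost in 8 of 17 alternative settings. VAMP8, the lysosomal SNARE, was at 84.4 ± 3.47, 95.3 ± 5.39 and 59.4 ± 3.28 CPM (SD, n = 3), higher with siZIP7_1 (log2 0.17) and lower with siZIP7_2 (log2 -0.51, SE 0.055, edgeR adjusted p = 1.65e-09).

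The other members of this step, TECPR1, PLEKHM1 and EPG5, were higher with both siRNAs. TECPR1, which links the ATG12 and ATG5 conjugate to lysosomes, was at 36.7, 34.8 and 36.0 CPM with siNC, 66.8, 68.5 and 66.9 CPM with siZIP7_1 and 41.3, 40.5 and 40.9 CPM with siZIP7_2. PLEKHM1, an adaptor that binds ATG8 proteins and the HOPS complex, was at 48.6, 50.4 and 46.9 CPM with siNC, 72.5, 66.6 and 66.8 CPM with siZIP7_1 and 90.9, 87.0 and 90.2 CPM with siZIP7_2. The first was highest with siZIP7_1 and the second with siZIP7_2, and in neither do the groups overlap. EPG5, a tether that directs autophagosomes to late endosomes and lysosomes, was at 98.8, 96.5 and 91.0 CPM with siNC, 148, 137 and 138 CPM with siZIP7_1 and 151, 158 and 162 CPM with siZIP7_2. The log2 fold changes were 0.91 and 0.19 for TECPR1, 0.50 and 0.88 for PLEKHM1, and 0.56 and 0.72 for EPG5. A pseudogene shares part of the 17.1% of PLEKHM1 50-base words found in other genes, and the TECPR1 call with siZIP7_2 was lost with no filter on low counts (log2 0.14).

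DEPP1, first described in decidual cells, is a target of FOXO factors that modulates autophagy and peroxisomes. It lies on chromosome 10 from 44970981 to 44978810 (minus strand). Its level was 4.103, 3.61 and 3.92 CPM with siNC, 2.37, 2.27 and 2.42 CPM with siZIP7_1 and 66.3, 47.7 and 52.9 CPM with siZIP7_2. The siZIP7_1 libraries lie below siNC (log2 -0.72, SE 0.17, edgeR adjusted p = 0.000335) and the siZIP7_2 libraries 14.3-fold above it (log2 3.84, SE 0.11, edgeR adjusted p = 1.09e-22), and the siRNAs differed by 4.56 on the log2 scale, the largest difference among the members. RASSF4 covers 23.3% of the DEPP1 exonic length on the opposite strand and was at 12.5, 9.67 and 14.7 CPM.

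The 250 bases upstream of DEPP1 were read from RefSeq on GRCh38.p14 (chr10:44978810-44979059, minus strand). They are shown because this gene had the largest change of the members, and the capitals mark the forkhead element GTAAACA.
DEPP1: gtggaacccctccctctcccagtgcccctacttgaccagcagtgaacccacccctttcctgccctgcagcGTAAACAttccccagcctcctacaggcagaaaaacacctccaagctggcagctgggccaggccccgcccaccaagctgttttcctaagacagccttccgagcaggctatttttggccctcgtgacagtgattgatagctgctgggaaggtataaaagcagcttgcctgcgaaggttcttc
In the same window, on both strands, the forkhead element was in 2.98% of 35116 RefSeq promoter entries and in 2 of the 67 entries of members (2.99%), those of CALCOCO2 and DEPP1. It was in 0 of the 35 entries of members higher with both siRNAs. An entry was found for 52 of the 60 members. The E-box CACGTG, core of the CLEAR element bound by TFEB, was in 6.34% of all entries and in 5 of the members' entries (ATG14, ATG3, BNIP3, FAM134A and SNAP29). Its longer form TCACGTGA, which contains the E-box, was in 0.854% and in 1 (FAM134A). The antioxidant response element TGACNNNGC was in 10.9% of all entries and in 8 of the 67. The composite element TGATGNAA of CHOP and ATF factors was in 3.14% of all entries and in 0 of the members', and the ER stress element in 0.074% and in 0. None of these elements was in the stretches upstream of ULK1 and RUBCN, which were read in the same way and are not shown. A match is a string of letters and was not tested for binding.

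Tested directly against each other, the siRNAs gave 21 members higher and 27 lower with siZIP7_2 than with siZIP7_1, and 11 that did not pass. Of all genes 78.7% passed in this comparison, 38.1% higher and 40.6% lower. The median log2 difference was -0.08 over the members and -0.02 over all genes. By step, siZIP7_2 was above siZIP7_1 for 3 and below for 1 of 4 initiation genes, above for 5 and below for 2 of 10 conjugation genes, above for 2 and below for 6 of 10 membrane supply genes, and above for none and below for 4 of 6 ER-phagy receptors. Beside DEPP1, the log2 differences reached 1.65 for SQSTM1, 1.06 for BNIP3L and 1.02 for GABARAPL1 in the higher direction, and -2.27 for MAP1LC3A, -1.53 for NBR1 and -1.04 for ATG2B in the lower. SLC39A7 was also lower with siZIP7_2 than with siZIP7_1 (19.2 and 35.6 CPM), and its part in these differences was not tested.

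The 9 members that changed in opposite directions were ATG2A, ATG12, MAP1LC3A, GABARAP, NBR1, FAM134A and VAMP8, higher with siZIP7_1 and lower with siZIP7_2, and BNIP3L and DEPP1, lower and then higher. For 6 of them (MAP1LC3A, GABARAP, NBR1, BNIP3L, VAMP8 and DEPP1) both calls held in all 16 alternative settings other than the test against a 1.8-fold change. Of the 29 members higher with both siRNAs, 27 kept both calls in those 16 settings, the exceptions being MAP1LC3B2 and TECPR1. Of the 5 members higher with siZIP7_1 alone, 1 kept its pattern there (TEX264), and of the 3 lower with it alone, 0 did. Of the 4 higher with siZIP7_2 alone, 2 did (VMP1 and ATG4B), and BNIP3, lower with it alone, did not. Among the 4 lower with both siRNAs 3 did, and among the 4 past the threshold with neither, 2 did.

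Per length, the levels of the members in siNC cells spanned a wide range. VAMP8 was highest at 85.3 RPKM, followed by SQSTM1 at 70.1, WDR45B at 51.3, BNIP3L at 32.8 and OPTN at 29.2 RPKM. This order depends on the annotated exonic length, which is 990 bases for VAMP8 and 7654 for SQSTM1. In CPM the order of these 2 genes was reversed, at 84.4 for VAMP8 and 536 for SQSTM1 with siNC. With siZIP7_2, SQSTM1 came first at 413 RPKM. The lowest members in siNC cells were ULK2 at 0.00653 RPKM and FAM134B at 0.0916 RPKM. The summed RPKM of all 60 members was 776 with siNC, 1053 with siZIP7_1 and 1284 with siZIP7_2, of which SQSTM1 held 70.1, 132 and 413 RPKM.

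A further 60 autophagy genes outside this set (upstream kinases, transcription factors, further core genes, further receptors, tethers and fusion factors) were compared with it. Of the 59 tested, 32 were higher and 18 lower with siZIP7_1, and 28 were higher and 21 lower with siZIP7_2, with medians of 0.24 and 0.10 on the log2 scale. As shares these are 54.2% and 30.5% with siZIP7_1, beside 34.8% and 35.9% of all genes, and 47.5% and 35.6% with siZIP7_2, beside 38.5% and 39.3%. With both siRNAs 22 were higher (37.3%) and 13 lower (22.0%), beside 17.7% and 20.8% of all genes. Among the kinases above ULK1, 4 were higher and 6 lower with both siRNAs. AKT1S1 (PRAS40), an inhibitory subunit of mTORC1, was lower (130 ± 4.13, 59.1 ± 2.82 and 89.6 ± 1.02 CPM, SD, n = 3), and TSC1, which restrains mTORC1, was higher (53.0 ± 2.41, 113 ± 1.39 and 82.9 ± 1.23 CPM, SD, n = 3).

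Among the transcription factors, 4 of 9 were higher and 1 lower with both (44.4% and 11.1%, beside 17.7% and 20.8% of all genes). FOXO4 was at 12.4 ± 1.00, 24.6 ± 2.36 and 27.5 ± 1.77 CPM (SD, n = 3). Of the further core genes, TP53INP1, a p53-inducible protein that binds ATG8 proteins, was higher by 2.05 and 1.81 on the log2 scale, reaching 41.7 ± 0.662 and 35.5 ± 1.35 CPM (SD, n = 3). ATG9B, the paralog of ATG9A, had 3, 1 and 2 reads with siNC, 22, 17 and 19 with siZIP7_1 and 20, 19 and 19 with siZIP7_2, and no fold is given for it. Of the further receptors, 4 of 13 were higher and 4 lower with both (30.8% each, beside 17.7% and 20.8% of all genes). CALCOCO1, an ER-phagy and Golgi receptor, was at 44.1 ± 3.25, 77.8 ± 8.72 and 102 ± 10.8 CPM (SD, n = 3). NIPSNAP1, a mitochondrial marker for mitophagy, was at 26.4 ± 1.58, 21.7 ± 1.40 and 9.91 ± 0.634 CPM (SD, n = 3). Of the tethering and fusion genes, 5 of 12 were higher and none lower with both (41.7% higher, beside 17.7% of all genes, with 20.8% of all genes lower). TECPR2, which serves ER exit sites and autophagosomes, was at 29.8 ± 1.15, 93.3 ± 3.21 and 43.8 ± 3.67 CPM (SD, n = 3).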

How the data were processed

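The files deposited by the authors hold unnormalised read counts for each Ensembl gene, made from single-end reads. The submitters' processing notes name Trim Galore 0.4.1, FastQC 0.11.2, STAR, HTSeq 0.6.1 and DESeq2 1.16.1, and the genome build, annotation release and strand setting are not given in the sources used here. Each file ends in 5 summary lines, left out here. They hold 7.43% to 11.5% of reads on no gene and no reads with several alignments. Of 58395 identifiers, 58275 were in GENCODE release 29 (GRCh38).

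Counts were fitted in R 4.3.3 with edgeR 4.0.16 (TMM, low-count filter leaving 16761 genes, quasi-likelihood test, Benjamini-Hochberg threshold 0.05) in a single model of the 3 groups with 6 residual degrees of freedom. The biological coefficient of variation was 4.50%. The standard error (SE) is the log2 fold change divided by the square root of F. On simulated counts for siZIP7_1 against siNC with 200 of 16263 genes changed, 90% of 2-fold and 73% of 1.5-fold changes were recovered, with 5.23% of calls false. For siZIP7_2 against siNC with 200 of 16251 genes changed these were 89%, 74% and 7.39%. The simulation gave every gene the same spread and changed far fewer genes than passed in the data (70.7% and 77.8%). Its rates therefore need not hold for these libraries. Members and lists were chosen with earlier results of these data known. The genes given by library were up to 3 per step with the largest change against siNC at 1 CPM or more, and all ATG8 genes. Of other autophagy genes, up to 8 were given that had the largest mean change in the same direction with both siRNAs. ATG2A and NBR1 were added after their values were seen. Nothing in the labels says that replicates were separate cultures, so p-values measure the spread between these libraries. A floor of 3 counts (0.0985 to 0.124 CPM) covers counting error only. Alternatives were DESeq2 1.42.0, its size factors, upper-quartile scaling, other count filters, a replicate block, fits to pairs of groups, a test against 1.8-fold (glmTreat) and leaving out each library.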

Additional observations from a re-analysis of the deposited data

Results flagged for a closer look

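The siRNAs moved 9 members in opposite directions against siNC, and the test of siZIP7_2 against siZIP7_1 passed for each of them. These are 15.3% of the 59 members tested, below the 18.7% of all genes that moved in opposite directions, and ATG2A, ATG12 and FAM134A lost a call against siNC under other settings than the test against 1.8-fold. On the log2 scale, siZIP7_2 minus siZIP7_1, the differences were -0.94 for ATG2A, -0.62 for ATG12, -2.27 for MAP1LC3A, -0.88 for GABARAP, -1.53 for NBR1, -0.91 for FAM134A and -0.68 for VAMP8, and 1.06 for BNIP3L and 4.56 for DEPP1.

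Reads that fell on no gene, which the comparisons do not use, were more frequent in every siZIP7_2 library (lowest 9.99%) than in any siNC library (highest 8.28%). The siZIP7_1 libraries ranged from 7.80% to 9.62%. The part of these reads in the results was not tested.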

How the results depend on the processing

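Among 3054 gene values under 17 alternatives, 2769 kept direction and side of the threshold, 211 lost their call, 45 gained one and 29 changed sign. The test against a 1.8-fold change (glmTreat), which asks for more by construction, left 4 members higher and 0 lower with siZIP7_1, 7 higher and 1 lower with siZIP7_2, and 5 higher and 4 lower between the siRNAs. It left 1 higher (ATG4A) and 0 lower with both siRNAs and 0 in opposite directions. Each of these was a smaller share of the tested members than that of all genes under the same test. Upper-quartile normalization gave 7 lower with siZIP7_2, where the cause was not tested.

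Leaving out each library in turn gave 40 to 41 members higher and 8 to 9 lower with siZIP7_1, 34 to 36 higher and 9 to 14 lower with siZIP7_2, 18 to 21 higher and 24 to 28 lower between the siRNAs, 28 to 30 higher and 3 to 4 lower with both, and 7 to 10 opposite.

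The labels number the libraries 1 to 3. After removal of group means, libraries that share a number correlated at a mean of 0.0235 (-0.124 to 0.131, 9 pairs). Libraries of other groups with a different number correlated at -0.012 (-0.252 to 0.195, 18 pairs). These ranges overlap, and they cannot show whether libraries with the same number were handled together. With the replicate block 41 were higher and 9 lower with siZIP7_1, 35 and 11 with siZIP7_2, 21 and 27 between the siRNAs, 29 and 4 with both, and 8 opposite.

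The values that changed sign passed no threshold. With siZIP7_1 against siNC, leaving out 1 library gave log2 fold changes of -0.0431 to 0.0496 for BNIP3, -0.0201 to 0.0467 for ATG4B, -0.035 to 0.094 for ATG5 and -0.1082 to 0.008 for PIK3R4. With siZIP7_2 against siNC it gave -0.0373 to 0.007 for ATG16L1, -0.0373 to 0.0584 for TEX264 and -0.0178 to 0.052 for CALCOCO2. In that comparison ATG16L1 was at 0.0125 with DESeq2 or its size factors, 0.086 with upper-quartile scaling and 0.0544 with at least 10 counts, and TEX264 at 0.0286, 0.1026 and 0.0706, and at 0.0054 in the fit to the pair of groups. ATG5 was at 0.0326 with upper-quartile scaling and 0.0005 with at least 10 counts, and CALCOCO2 at -0.0408 with no low-count filter. Between the siRNAs, AMBRA1, ZFYVE1 and TOLLIP were at 0.0385, 0.0289 and 0.0387 with upper-quartile scaling and 0.0096, 0.0 and 0.0094 with at least 10 counts. Depth limited ULK2 and ATG9B, whose siNC libraries held at most 3 reads.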

Other observations

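By regulator, textbook targets of ATF4 and CHOP among the members (12 genes) were higher in 8 and lower in 2 with siZIP7_1, and higher in 5 and lower in 5 with siZIP7_2. As shares these are 66.7% and 16.7%, beside 34.8% and 35.9% of all genes, and then 41.7% each, near the 38.5% and 39.3% of all genes. Those of TFEB (UVRAG, WIPI1, MAP1LC3B and SQSTM1) were higher in 4 of 4 and in 3 of 4. Those of FOXO factors (8 tested of 9) were higher in 5 and lower in 1, and then higher in 6 and lower in 2 (62.5% and 12.5%, then 75.0% and 25.0%). Of the HIF1 targets BNIP3 and BNIP3L, 0 were higher and 1 lower, and then 1 higher and 1 lower. These lists share genes with each other and were chosen with results known, and the smaller ones hold too few genes to set against the share of all genes, so their counts are descriptions.

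Of the factors themselves, TFEB was at 3.16 ± 0.230, 2.85 ± 0.447 and 10.1 ± 2.09 CPM with siNC, siZIP7_1 and siZIP7_2, MITF at 24.6 ± 0.499, 75.1 ± 1.15 and 13.4 ± 0.933 CPM, and ATF4 at 294 ± 6.61, 255 ± 11.2 and 186 ± 6.06 CPM (SD, n = 3). DDIT3 (CHOP) was higher with both siRNAs, at 26.4 ± 0.350, 41.2 ± 2.24 and 36.8 ± 2.27 CPM (SD, n = 3). TFE3 was also higher with both, at 94.7 ± 4.26, 148 ± 2.48 and 146 ± 2.94 CPM (SD, n = 3). Of the 9 transcription factors listed, 4 were higher with both, 1 lower with both and 2 opposite. As shares these are 44.4%, 11.1% and 22.2%, beside 17.7%, 20.8% and 18.7% of all genes. Another 1 passed with siZIP7_2 alone and 1 with neither. The genes named here were chosen after their values were seen.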
